A study of Caenorhabditis elegans with 2 samples.

Results

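The regions described here are autosomal distal peaks of the transcription factor MDL-1 whose summits lack the canonical E-box. A member is a peak of the optimal list that is not on the X chromosome. Its summit, the highest point marked by the authors' caller, lies outside every window from 1000 bp upstream to 200 bp downstream of a protein-coding transcript start. No CACGTG lies wholly within 50 bp of the summit, although one may reach partly into that stretch. Of 1076 optimal peaks, 293 met the rule. MDL-1 was profiled by ChIP-seq in whole L2 larvae of Caenorhabditis elegans of mixed sex, in 2 biological replicates of 1 group and with no second condition. The strain was OP355, genotype unc-119(tm4063) III; wgIs355, in which the integrated transgene wgIs355 targets mdl-1. Both replicates carry the mutation and the transgene, and no untagged strain was analysed here. The antibody, strain and experiment labels name MDL-1, whereas a further label on both samples names KLU-1 as the protein with a C-terminal GFP-FLAG tag. Whole larvae mix all cell types, so the peaks cannot be given to a tissue.

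MDL-1 is a bHLH-Zip protein related to mammalian Mad proteins. It pairs with the Max-like protein MXL-1 and this pair recognises CACGTG, the canonical E-box. Mad-Max dimers are known in mammals as repressors that compete with Myc-Max dimers for the same sites. In the compact worm genome most regulatory elements lie close to gene starts, and introns and intergenic spacers hold further ones.

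The sequences at the strongest summits show the letters that members carry there. Each line gives the summit base with 50 bases to each side, on the plus strand of ce11. Capitals mark GAGAGA or AGACGCAG, read on either strand, so that they also appear as TCTCTC and CTGCGTCT. The first set was chosen because it holds GAGAGA, the next because it holds AGACGCAG, and the last lines because they hold neither word.
mtm-3 side, chrIII:3801466-3801566: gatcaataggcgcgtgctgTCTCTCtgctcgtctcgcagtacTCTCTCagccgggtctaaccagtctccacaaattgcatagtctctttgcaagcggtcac
nhr-19 intron, chrII:9603542-9603642: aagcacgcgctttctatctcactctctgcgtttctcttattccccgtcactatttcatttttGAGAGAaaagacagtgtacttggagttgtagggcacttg
pqn-41 intron, chrIII:1921330-1921430: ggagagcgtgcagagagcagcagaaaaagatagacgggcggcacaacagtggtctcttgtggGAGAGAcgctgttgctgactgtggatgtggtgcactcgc
nhr-88 side, chrII:2974048-2974148: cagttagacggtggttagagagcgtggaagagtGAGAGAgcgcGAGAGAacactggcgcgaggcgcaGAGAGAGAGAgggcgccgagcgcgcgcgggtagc
egl-9 side, chrV:10466693-10466793: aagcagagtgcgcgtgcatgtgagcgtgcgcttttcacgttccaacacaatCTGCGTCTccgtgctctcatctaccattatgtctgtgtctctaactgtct
ogt-1 side, chrIII:7155747-7155847: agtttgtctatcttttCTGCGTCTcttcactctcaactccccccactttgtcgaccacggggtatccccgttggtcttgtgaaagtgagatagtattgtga
Y111B2A.12 intron, chrIII:12612609-12612709: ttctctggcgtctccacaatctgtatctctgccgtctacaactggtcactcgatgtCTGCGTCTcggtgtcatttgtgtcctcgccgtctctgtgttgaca
daf-5 intron, chrII:14040418-14040518: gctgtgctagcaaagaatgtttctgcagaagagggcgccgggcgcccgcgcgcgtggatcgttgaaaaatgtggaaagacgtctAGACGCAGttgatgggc
ppm-2 side, chrIII:4649393-4649493: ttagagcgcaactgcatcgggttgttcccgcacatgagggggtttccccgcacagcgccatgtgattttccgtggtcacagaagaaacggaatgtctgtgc
mml-1 side, chrIII:7376559-7376659: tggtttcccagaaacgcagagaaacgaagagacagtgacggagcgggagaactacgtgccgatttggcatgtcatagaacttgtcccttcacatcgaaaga

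Both words stood out against the sequence 300 bp away. GAGAGA lay within 50 bp of the summit in 132 of 293 members, 45.1% (95% exact binomial interval 39.3 to 50.9), against 10.2% of the windows 300 bp to the left and 7.51% of those to the right. AGACGCAG was present in 57 members, 19.5% (interval 15.1 to 24.5), against 0.683% of the left windows and 0.341% of the right windows. Tiles of the same length on the autosomes, centred outside promoter windows, held GAGAGA in 4.98% and AGACGCAG in 0.494% of 596161 tiles. Such matches describe the sequence and do not show which protein is bound.

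Every 6-mer, with reverse complements merged, was compared between the summit and the left window by a two-sided exact McNemar test with Benjamini-Hochberg adjustment. Of these, 170 words were higher at the summit, 8.17% of those tested, and 163 were lower, 7.84%. These counts depended on the choices made: 54 words were higher with windows of 51 bp and 76 with promoter windows reaching 2000 bp upstream. Against the right windows 135 words were higher, 93 of them among the 170. GAGAGA was found only at the summit in 117 members and only in the flank in 15 (adjusted p = 9.41e-18, exact McNemar test). ACGCAG, which lies within the longer word, was present in 27.6% of summits and 1.71% of flanks (adjusted p = 1.45e-16, exact McNemar test). Further leading words that overlap the longer word on either strand, among them CGTCTC as well as the form GACGCA within it, were present in 22.5% to 28.0% of summits and 2.39% to 3.75% of flanks, and these are not separate findings. Among 8-mers, AGACGCAG was at the summit alone in 56 members and in the flank alone in 1. At the other end, AAAATT was present in 6.83% of summits and 41.0% of flanks (adjusted p = 1.22e-18, exact McNemar test). The calls went with base composition: summits averaged 49.3% G and C, against 35.7% in the left and 35.9% in the right windows. Over all optimal peaks these means were 49.6%, 35.6% and 35.6%, so the rise was not particular to members. Of 36 words without G or C, 31 were lower and 0 higher by this test, and of 36 words made only of G and C, 11 were higher and 0 lower.

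Words made of the same letters differed widely in their shares. Among the 20 6-mers made of the same letters, GAGAGA had the highest share, 45.1%, and the median share was 9.90%. ACGCAG had likewise the highest share among the 90 words of its own letters, 27.6%, where the median was 3.92%. In the replicates' own lists of their 1076 strongest regions, the same rule gave 319 members in replicate 1 and 315 in replicate 2. GAGAGA was present in 42.6% of these in replicate 1 and 40.6% in replicate 2, and AGACGCAG in 16.0% in replicate 1 and 17.8% in replicate 2. The shares in the optimal list were higher than in either replicate's own list.

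The words differed in how tightly they sat at the summit. Within 500 bp of the 293 summits there were 131 sites of AGACGCAG, of which 60 lay within 50 bp, 40 within 25 bp and 19 within 10 bp. Of 1231 sites of GAGAGA, 315 lay within 50 bp and 635 within 100 bp. The GAGAGA sites therefore spread over a wider stretch than those of AGACGCAG, with 107 to 164 sites in every 50 bp step from 150 bp before to 150 bp after the summit. Overlapping GAGAGA matches in a longer repeat were each counted.

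**Figure D1:**
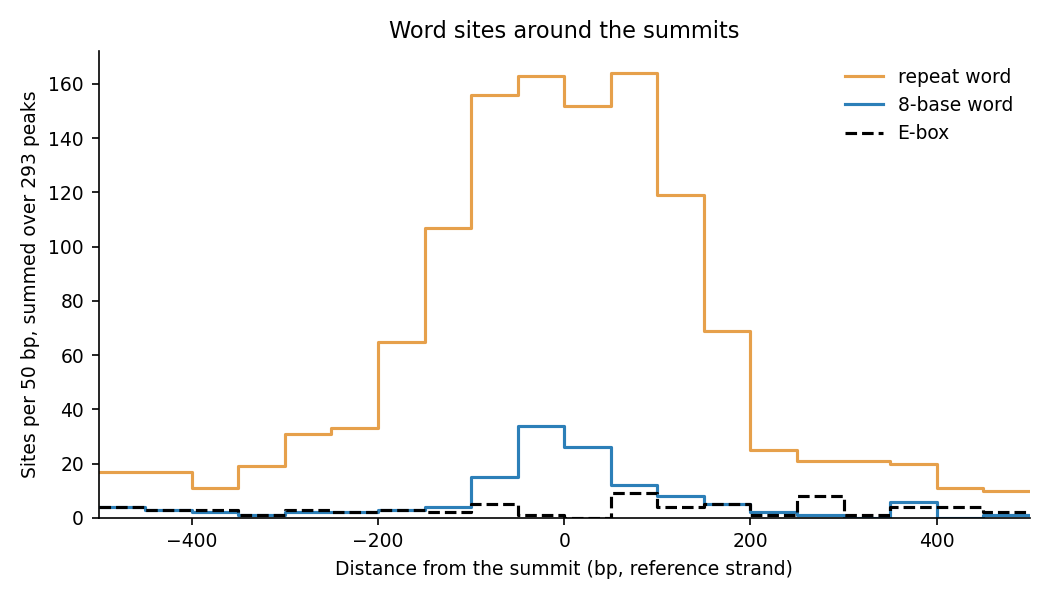
Sites of 3 words per 50 bp step, summed over the 293 members, against the distance from the summit in bp. The repeat word is GAGAGA, the 8-base word is AGACGCAG and the E-box is CACGTG; the 8-base word peaks at 34 and 26 sites in the steps beside the summit, and the E-box is near 0 there because the rule removed it.

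AGACGCAG sat in a longer shared context. In the 58 sites within member windows, the base before the word was G in 84.5% and the base after it was A in 81.0%. Over all 5291 sites of the word on the autosomes these shares were 77.4% and 74.3%, so sites outside the members shared these adjacent bases. Farther out the shares differed more. At position 3 after the word, A was at 72.4% of member sites and 45.9% of all sites. At position 4 before it, G was at 32.8% and 47.6%. These differences were not tested. Of those 5291 sites, 152, or 2.87%, lay within 50 bp of an optimal summit, and 22.1% lay inside one of the pooled regions that were deposited before thresholding. In the introns that held members the word lay mostly opposite to the host gene. Of 21 intronic members with the word and a host gene on 1 strand, 19 carried AGACGCAG on the strand opposite to the host gene and 2 on its own strand. It was on the opposite strand in 2 of 3 intronic distal peaks with the E-box, 11 of 16 promoter peaks (68.8%) and 3 of 3 X peaks. Over 1947 intronic sites of the word on the autosomes, 54.5% were on the opposite strand. The pattern was noticed after the values were seen and was not tested.

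Other E-boxes of the form CANNTG did not pass the threshold at the summits. CACGAG, with A in place of the T of CACGTG, is not of this form. Its shares are given below for members with neither GAGAGA nor AGACGCAG. The form CACATG was present in 9.56% of summits and 5.46% of left windows (adjusted p = 0.291, exact McNemar test), and CAGCTG in 2.73% of summits and 0.683% of left windows (adjusted p = 0.318, exact McNemar test). No other word of the form CANNTG passed the threshold, and CACGTG itself was removed by the rule. TGATAA, the site of GATA factors, was present in 5.12% of member summits and 10.2% of left windows. TGACTCA, the site of AP-1 factors, was found at 0 of 293 summits, which allows a share of up to 1.25% by the exact interval.

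Set beside the 3 most similar groups of peaks, members held GAGAGA more often than distal peaks of the X chromosome without the E-box. The shares were 45.1% of 293 members and 25% of 116 X peaks, a difference of 20.1 percentage points (adjusted p = 0.00530, two-sided Fisher's exact test, 27 tests). With a promoter window reaching 2000 bp upstream the difference was 18.8 points and no longer passed (adjusted p = 0.0617, Fisher's exact test). In the replicates' own lists it was 20.4 points in replicate 1 and 20.6 points in replicate 2. The windows 300 bp to the left held GAGAGA in 10.2% for members and 6.90% for X peaks. Those to the right held it in 7.51% and 3.45%. The part of this background in the difference was not tested. Autosomal distal peaks with the E-box held GAGAGA in 29.5% of 95 (adjusted p = 0.0742, Fisher's exact test), and autosomal promoter peaks without it in 37.5% of 309 (adjusted p = 0.231, Fisher's exact test). AGACGCAG was present in 19.5% of members, 10.5% of distal peaks with the E-box, 21.4% of promoter peaks and 9.48% of X peaks. None of these differences for AGACGCAG passed the threshold, with the smallest adjusted p = 0.120 against X peaks in Fisher's exact test. TGATAA was present in 5.12% of members and 14.7% of distal peaks with the E-box, which also missed the threshold (adjusted p = 0.0742, Fisher's exact test).

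**Figure D2:**
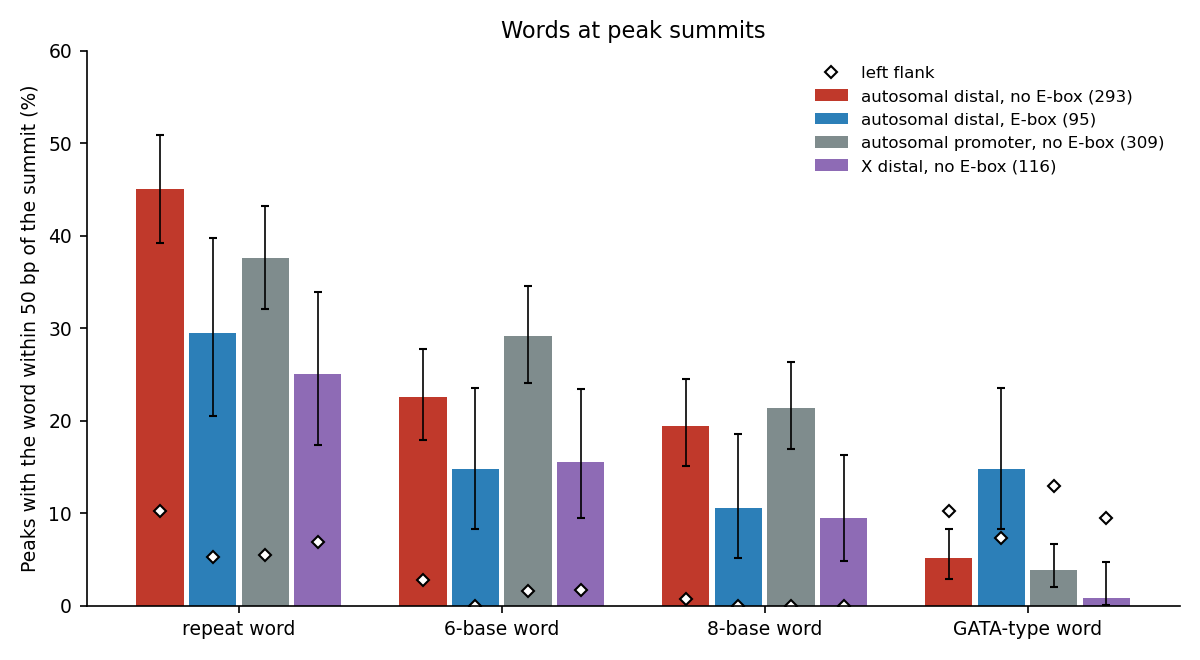
Share of peaks with a word within 50 bp of the summit, in percent, for the members and 3 other groups of optimal peaks; bars are shares, error bars 95% exact binomial intervals and white diamonds the share in the window 300 bp to the left. The repeat word is GAGAGA, the 6-base word GACGCA, the 8-base word AGACGCAG and the GATA-type word TGATAA; members hold the repeat word in 45.1% of peaks, against 25% on the X chromosome.

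Members with AGACGCAG had higher signals than those without it. The median signal in the authors' units, which have no stated scale, was 95.1 for the 57 members with the word and 66.4 for the 236 without it. In replicate 1 the medians were 55.2 with the word and 36.6 without it, and in replicate 2 they were 44.3 and 34.5. Among the 97 strongest members by signal 33.0% held AGACGCAG (interval 23.8 to 43.3), against 8.25% of the 97 weakest (interval 3.63 to 15.6; adjusted p = 0.000175, two-sided Fisher's exact test, 12 tests). Ranked by replicate 1 the shares were 36.1% and 8.25% (adjusted p = 4.73e-05, Fisher's exact test). Ranked by replicate 2 they were 28.9% and 11.3% (adjusted p = 0.0151, Fisher's exact test). GAGAGA was present in 50.5% of the strongest 97 and 38.1% of the weakest 97, which did not pass (adjusted p = 0.191, Fisher's exact test). G and C averaged 51.5% in members with AGACGCAG and 48.8% in those without, and its part in the difference was not tested.

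**Figure D3:**
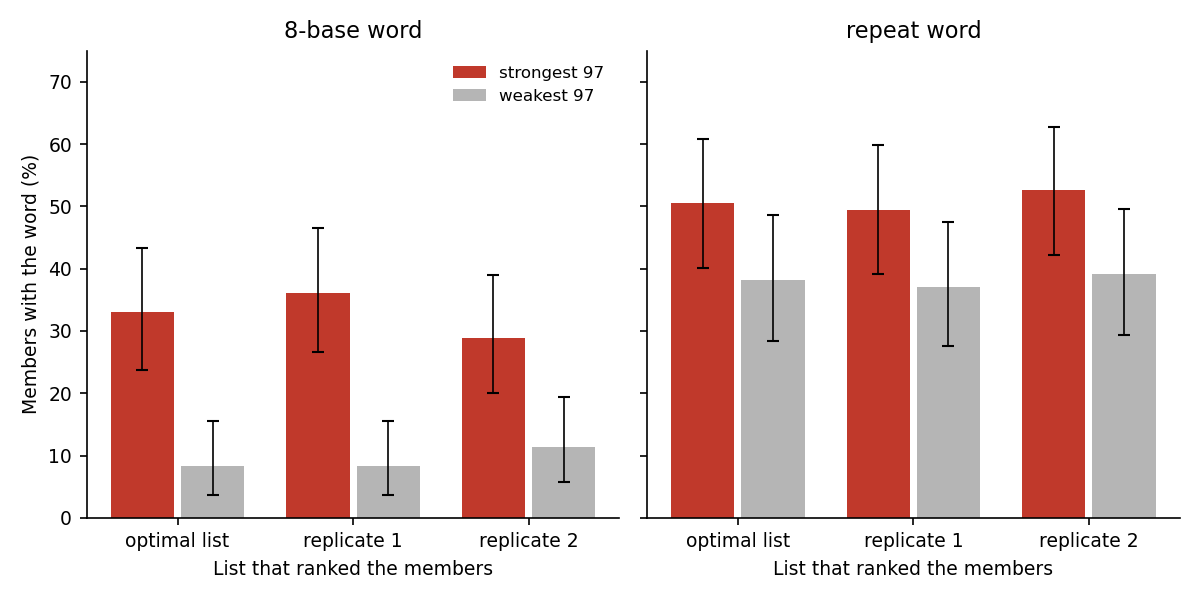
Share of the strongest 97 and the weakest 97 members that hold each word, in percent, when members are ranked by the signal of the optimal list or of either replicate; error bars are 95% exact binomial intervals. The 8-base word, AGACGCAG, is at 28.9% to 36.1% in the strongest and 8.25% to 11.3% in the weakest members, whichever list ranks them; the intervals of the repeat word, GAGAGA, overlap.

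The words split the members into 4 groups. Both words were present in 31 members, AGACGCAG alone in 26 and neither in 135, and the remaining 34.5% held GAGAGA alone. Of the 31 members with both words, 93.5% were among the 1076 strongest regions of both replicates, and of the 135 with neither word, 57.8% were. The share was 73.1% with AGACGCAG alone and 66.3% with GAGAGA alone. Strongest regions are ranked by signal, and the median signal was 102.8 with both words and 63.2 with neither. Signal was not held equal in these shares. The 135 members with neither word held some other words more often at the summit than in the left window. CTCTTC was at 20.7% of their summits and 4.44% of their left windows. CACGAG, which has A in place of the T of CACGTG, was at 14.8% and 1.48%. GCGCGC was at 13.3% of these summits and 0.741% of the left windows. These shares were not tested, because this set was cut by its words.

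Signal in the optimal list ran from 48.5 to 693.6, with a median of 70.0 and quartiles of 56.3 and 102.8. The median was 93.2 for autosomal distal peaks with the E-box, 71.2 for autosomal promoter peaks without it and 74.6 for X distal peaks without it. In replicate 1's own list member signals had a median of 39.6 and quartiles of 29.8 and 56.1, and in replicate 2's they had a median of 36 and quartiles of 28.5 and 52.0. Of the 293 members, 246 (84.0%) overlapped one of replicate 1's 1076 strongest regions, 234 (79.9%) one of replicate 2's, 193 (65.9%) both and 6 neither. The share found in both was 71.6% for distal peaks with the E-box, 59.5% for promoter peaks and 62.9% for X peaks, and none of the 3 differences passed (smallest adjusted p = 0.331, Fisher's exact test). The summits of both replicates lay a median of 30 bp apart at members. The weakest agreement was at a member on chromosome V at 9274961, with a signal of 7.23 and rank 23135 in replicate 1 against 42.5 and rank 415 in replicate 2. The full list of replicate 1 lacked a region for 1 member, at the tRNA gene described among the RNA genes, and that of replicate 2 for 1 other, beside T06D10.3. Because no read counts were used, depth is unknown, and the intervals cover counting error over peaks only.

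**Figure D4:**
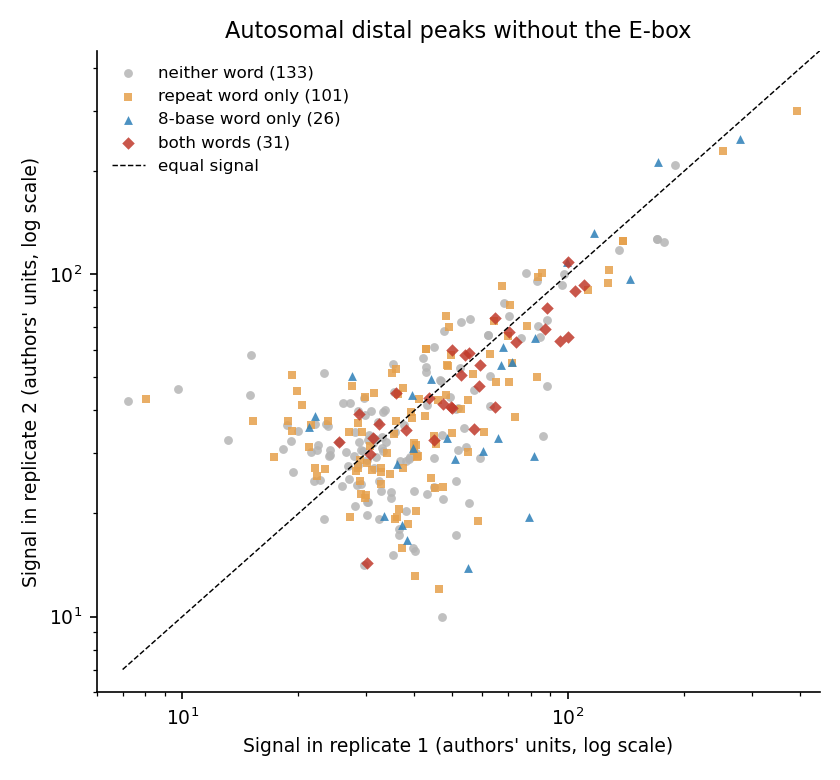
Signal of each member in replicate 1 and replicate 2, in the authors' units on log axes, for the 291 members with a region in both lists; marker and colour give the words at the summit (repeat word GAGAGA, 8-base word AGACGCAG). Strong members lie near the line of equal signal, and members far from it are weak in one replicate. The optimal list was thresholded on the irreproducible discovery rate, so this agreement is not independent of how the peaks were chosen.

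The 3 strongest members had similar ranks in both replicates. The strongest of all, with a summit at III 3801516, had a signal of 392.9 in replicate 1 and 299.1 in replicate 2, ranks 5 and 6. It lay 1049 bp from the start of mtm-3, a myotubularin-type lipid phosphatase gene, and so only just outside a promoter window. The next, at V 10466743, had 279.5 in replicate 1 and 249.3 in replicate 2 and lay 1774 bp from the start of egl-9, the prolyl hydroxylase that marks HIF-1 for degradation. The member at II 9603592 had 252.2 in replicate 1 and 229.9 in replicate 2, inside an intron of the nuclear hormone receptor gene nhr-19. The ranks of these members were 9 and 10 beside egl-9 and 14 and 11 in nhr-19. Others of the 20 strongest differed more, such as the member in Y111B2A.12 with ranks 60 and 30, that in daf-5 with 32 and 68, and that beside slc-17.7 with 138 and 65.

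Other strong members lay beside genes of various kinds. The member at III 7155797, with a signal of 171.4 in replicate 1 and 212.3 in replicate 2, lay 2000 bp from the start of ogt-1, the O-GlcNAc transferase gene. Those at III 1925352 and III 1921380 lay in introns of pqn-41, which encodes a glutamine-rich protein, with 177.4 and 138.8 in replicate 1 and 124.3 and 124.8 in replicate 2. The member at III 7376609 lay 1878 bp from the start of mml-1, the worm Mondo gene and itself a bHLH-Zip factor of the wider Max network. Its signal was 135.9 in replicate 1 and 118.0 in replicate 2, and its nearest CACGTG ended 54 bp from the summit, just beyond the limit of the rule. The member at V 20778374 lay 2033 bp from the start of hif-1, the hypoxia-inducible factor, with 99.9 in replicate 1 and 108.3 in replicate 2. The rest of the 20 strongest lay beside or in ppm-2, sup-26, Y111B2A.12, daf-5, nhr-88, chd-7, W06H8.6, F42C5.9, hxk-1, ins-13, slc-17.7 and zfp-1, with signals in the optimal list from 180.5 to 408.0.

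Members near the limits of the rule ranged from weak to strong. The 4 members closest to a promoter window lay 5 to 38 bp outside one, with signals from 57.6 to 131.2. They were beside sup-1, adah-1 and egl-3 and in an intron of zfp-1. The 4 peaks just inside one, beside acs-4, otub-2, lin-23 and lit-1, had signals from 56.2 to 185.2. The 4 members with the nearest CACGTG had it end 52 to 54 bp from the summit, with signals from 55.9 to 252.9. They were in an intron of daf-2 and beside W04D12.1, mml-1 and K08B12.3. The 4 distal peaks just kept out by an E-box ending 49 or 50 bp from the summit had signals from 68 to 185.1. The nearest starts were those of saeg-1, ddx-23, mdh-2 and sel-8. In all, 14 members had CACGTG ending 51 to 100 bp from the summit and 25 had it somewhere in the peak. The nearest of these E-boxes began within 50 bp of the summit.

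Nearly all members lay in intergenic sequence or in introns. Of 293 summits, 145 (49.5%) were intergenic, 116 (39.6%) in an intron of a protein-coding gene, 22 in a gene of another biotype, 4 in a coding exon, 4 in a 5′ UTR and 2 in a 3′ UTR. Introns held 37.9% of distal peaks with the E-box (adjusted p = 1, Fisher's exact test), 30.2% of X peaks (adjusted p = 0.562, Fisher's exact test) and 21.0% of promoter peaks (adjusted p = 4.48e-05, Fisher's exact test, 51 tests). Among the 538 strongest optimal peaks the difference from promoter peaks, 18 points, did not pass (adjusted p = 0.0550, Fisher's exact test). The rule removed summits close to starts, so the difference from promoter peaks is not independent of how the members were chosen. Of the 116 intronic members, 70 (60.3%) were in a first intron of at least 1 transcript, close to the 61.5% of all intronic optimal peaks. The introns of members had a median length of 4261 bp. The distance to the nearest protein-coding start had a median of 2038 bp in members and 2064 bp in distal peaks with the E-box. Beyond 5000 bp lay 35 members and beyond 10000 bp 7, the farthest at 20187 bp in an intron of gcn-1.

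**Figure D5:**
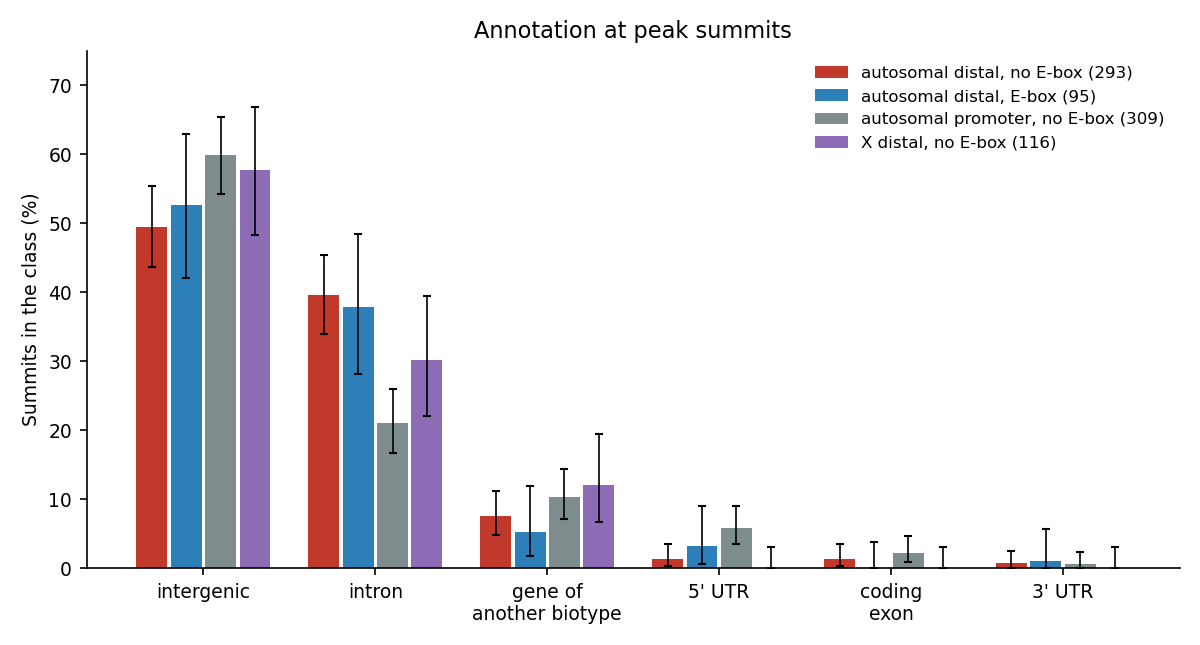
Share of summits in each annotation class, in percent, for the members and 3 other groups of optimal peaks, with 95% exact binomial intervals. Members and the other distal groups have 30.2% to 39.6% of summits in introns, against 21.0% in promoter peaks.

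Members were spread over all 5 autosomes. There were 69 on chromosome III (5.01 per Mb), 65 on II (4.25 per Mb), 52 on I (3.45 per Mb), 55 on IV (3.14 per Mb) and 52 on V (2.49 per Mb). They made up 34.2% to 39.1% of the optimal peaks of each of these chromosomes. Distal peaks with the E-box were sparser everywhere, with 0.464 per Mb on I and 0.956 to 1.60 per Mb on the others. Within 5000 bp of another member lay 90 members, in 37 groups of up to 5, and 8 members shared their replicate values with a neighbour because the same regions overlapped both.

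Some genes held several members in their introns. The introns of pqn-41 held 5 members over 5232 bp, with signals from 49.4 to 302.5. Those of ncl-1, a B-box gene that restrains nucleolar size, held 5 weaker members, with signals of at most 69.9. The introns of zfp-1, a chromatin gene related to mammalian AF10, held 4 members with signals from 95.1 to 180.5, and those of daf-5, the Sno/Ski-type factor of dauer TGF-β signalling, held 4 in 2 separate pairs with signals up to 239.3. The genes let-526, a SWI/SNF subunit gene, lag-1, the transcription factor of Notch signalling, daf-16, the FOXO factor, pkg-2, a cGMP-dependent kinase gene, and ppfr-1, a phosphatase regulatory subunit gene, had 3 intronic members each. These genes were picked for their counts and got no test.

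A protein-coding gene was linked to a member when it had the nearest start or when its intron held the summit. This linked 251 genes, 1.46% of the 17242 protein-coding genes of the autosomes. Of these, 213 had 1 member, 25 had 2 and 13 had 3 or more. A link gives a position and not a target. Long genes with long introns offer more positions for a link, and the shares of the gene lists were not adjusted for gene length. Of the 116 intronic members, 100 had the nearest start in the host gene itself, and 33 linked genes also had an optimal peak in their own promoter window.

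Transcription factors were linked as follows, where 1.46% of all protein-coding genes were linked. Of 247 autosomal nuclear hormone receptor genes, 7 (2.83%) were linked, with the strongest members at nhr-19 (473.3), nhr-88 (231.2), nhr-20 (176.8) and nhr-21 (104.6). Of 30 bHLH genes, 4 (13.3%) were linked, namely mml-1 (252.9), hif-1 (200.9), hlh-30, the TFEB-like factor (71.6), and hlh-10 (48.8). The only hlh-10 member is the one of weakest replicate agreement, with 7.23 in replicate 1 and 42.5 in replicate 2. Of 73 homeodomain genes 0 were linked. Shares of such small lists rest on few genes, and their size was not tested.

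Signalling and timing genes had these links. Of 12 insulin and FOXO genes, 3 (25%) were linked with 6 members: daf-2, the insulin receptor gene (strongest signal 150.2), skn-1, an Nrf-type factor gene (80.4), and daf-16 (61.3). Of 17 TGF-β genes, 2 (11.8%) were linked, daf-5 and the type II receptor gene daf-4 (58.8). The only daf-4 member had 36.6 in replicate 1 and 17.3 in replicate 2, with ranks 646 and 3913. Of 13 heterochronic timing genes, 2 (15.4%) were linked, namely lin-42, the Period-like gene, with 3 members (174.8), and lin-41, a TRIM-NHL gene (89.99). The strongest lin-42 member had 104.2 in replicate 1 and 89.4 in replicate 2, while the member at II 1238059 in the same gene had 51.4 in replicate 1 and 17.3 in replicate 2. Of 24 Wnt genes 0 were linked, and of 46 axon guidance and adhesion genes 1 (2.17%) was, unc-73 (55.7), a guanine nucleotide exchange factor gene.

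Metabolic, structural and sensory lists lay on both sides of the 1.46% over all genes. Of 42 autophagy and vacuolar ATPase genes, 3 (7.14%) were linked: epg-9 with 2 members (131.3), the kinase gene unc-51 (120.3) and hlh-30. Of 34 glycolysis and citric acid cycle genes 1 (2.94%) was, hxk-1, a hexokinase gene, at 193.3. Of 33 muscle structure genes 2 (6.06%) were, the actin genes act-3 (65.5) and act-1 (63.2), and of 146 cuticle collagen genes 2 (1.37%) were, col-94 (94.0) and dpy-4 (51.2). Of 1331 autosomal chemoreceptor genes 1 (0.0751%) was linked, str-166 (49.2), and of 108 neuropeptide and insulin-like peptide genes 1 (0.926%) was, ins-13 (190.6). No gene of the F-box and BTB (358), ribosomal protein (78), histone (77) or ion channel (49) lists was linked.

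Non-coding RNA genes lay within 200 bp of 78 members, 26.6% (interval 21.6 to 32.1), excluding piRNA genes. The share was 16.8% of distal peaks with the E-box, 24.6% of promoter peaks and 27.6% of X peaks, and none of these differences passed (smallest adjusted p = 0.418, Fisher's exact test). A tRNA gene lay beside 1 member (0.341%), against 8 of 116 X peaks (6.90%; adjusted p = 0.00612, Fisher's exact test). It lay beside 2 of 95 distal peaks with the E-box (2.11%; adjusted p = 0.712) and 2 of 309 promoter peaks (0.647%; adjusted p = 1), and neither difference passed Fisher's exact test. How many tRNA genes each chromosome holds was not taken into account in these tests. A snoRNA gene lay beside 16 members (5.46%), against 0 of the X peaks (adjusted p = 0.104), 2 of the distal peaks with the E-box (2.11%; adjusted p = 0.835) and 12 of the promoter peaks (3.88%; adjusted p = 1), and none of these passed Fisher's exact test. Unclassified ncRNA genes lay beside 56 members (19.1%), against 16.8% of distal peaks with the E-box, 20.4% of promoter peaks and 24.1% of X peaks. None of these differences passed (smallest adjusted p = 0.835, Fisher's exact test). The strongest pairs were F22E12.9 and F22E12.10 at the egl-9 member and T23F11.7 and T23F11.10 at the ppm-2 member.

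At snoRNA genes, which encode guides for the modification of other RNAs, most summits lay upstream. The 16 members lay beside 17 snoRNA genes, and for 11 of these the summit was upstream of the annotated 5′ end, at 29 to 61 bp with a median of 48 bp. For the others it was inside the gene in 4 and beyond its 3′ end in 2. The strongest were at K07C10.2, with 84.7 in replicate 1 and 65.4 in replicate 2, and W04D2.7, with 88.1 and 47.2. Y74C9A.6 had 47.8 in replicate 1 and 68.3 in replicate 2, C18A3.12 had 46.7 and 49.0, and F25H2.15 had 53.6 and 35.6. The summit was 40 bp upstream of C18A3.12 and 49 bp upstream of F25H2.15, but downstream of K07C10.2.

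Other RNA genes beside members were few. For long intergenic, snRNA, microRNA and antisense RNA genes, no difference from the 3 other groups of peaks passed (smallest adjusted p = 0.418, Fisher's exact test). Long intergenic RNA genes were overlapped or neighboured by 8 members, the strongest in linc-91 (212.3), linc-128 (179.5), linc-143 (150.2) and K07C10.8 (149.2). The snRNA biotype had 3, at sls-2.2, an SL2 spliced leader gene (190.6), sup-6 (180.2) and R07E5.16 (94.0). Of 3 members beside microRNA genes, those beside cel-mir-52 had 83.9 and 52.0 in replicate 1 and 70.4 and 30.7 in replicate 2, and the one beside cel-mir-53 had 17.2 in replicate 1 and 29.2 in replicate 2. Antisense RNA genes anr-54 (89.98) and F48C1.15 (82.1) each held 1 member, and the single tRNA gene was beside a member with no region in replicate 1's list.

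Repeated sequence was uncommon at the summits. Soft-masked bases, which mark repeats in the reference, made up 14.8% of the summit windows and 32.9% of the left windows. Over all optimal peaks these shares were similar, 12.9% and 31.4%. A further copy elsewhere in the genome, of at least 80% identity over at least 80 bases, existed for 7 members, including those at sls-2.2, sup-6, F25H2.15 and the tRNA gene, and reads from such copies cannot be told apart where they are identical. No member with AGACGCAG or GAGAGA was among them.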

How the data were processed

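The labels describe 2 biological replicates of 1 group. Per the text records deposited with each replicate, the authors made the peak lists from the alignments of each replicate and 1 additional file. Per the labels, the lists were deposited in ce10 and ce11, and only ce11 was used here. For the aligner, the caller and the threshold on the irreproducible discovery rate, the entry is: not given in the sources used here. The authors deposited a signal per region and a summit offset; the scale of the signal is not stated, so it was used to rank and describe regions. No read counts were used, so the depth is unknown.

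Summits were placed by position against Ensembl release 115 gene models, and sequence was read from the RefSeq copy of the same assembly. Positions count from 1. Where annotations overlapped, coding exons took precedence, then 5′ UTRs, 3′ UTRs, introns and genes of other biotypes. Intervals are 95% exact (Clopper-Pearson) binomial intervals. Words were compared between the summit with 50 bp to each side and an equal window centred 300 bp to the left. Fisher's exact tests were adjusted by Benjamini-Hochberg within 27 word tests, 51 annotation tests and 12 strength tests, at a threshold of 0.05. These tests treat peaks as independent, although some members lie close together, and the replicates have no second group to be compared with. Copies were sought with blastn 2.17.0; statistics used Python 3.11.15, NumPy 2.4.6, pandas 2.3.3 and SciPy 1.17.1. The word scan and the share tests were tested on simulated data with known changes. There words and peaks were drawn independently, so overlapping words, neighbouring peaks and the shift in base composition were not covered.

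Named genes were those at the 20 strongest members, up to 4 per gene list, up to 5 per RNA biotype and the 4 members at each limit of the rule. Genes with several intronic members, and those of the weakest replicate agreement, were picked with their values in view. The members, the words, the 18 gene lists and the tests were chosen with earlier results of these data known.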

Additional observations from a re-analysis of the deposited data

How the results depend on the processing

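Of 268 alternative values of 33 results, 228 kept their direction, their call or their range. The sign changed in 10, none of which passed the threshold in either setting. Among the 538 strongest optimal peaks these were the differences from promoter peaks in GACGCA (0.52 points) and AGACGCAG (5.75 points) and from X peaks in RNA genes (5.77 points). The difference in introns from distal peaks with the E-box was -0.0068 points with a promoter window of 500 bp to 100 bp and -2.35 points with 2000 bp. It was -2.93 points with no CACGTG wholly within 100 bp and -3.61 points with none in the peak. On a single replicate's list it was -1.70 to 4.20 points. RNA genes at 0 bp differed by -0.28 points from promoter peaks, and without members near a stronger member RNA genes differed by 0.065 points from X peaks. The 4 words followed one by one, GAGAGA among them, passed the scan in all 40 repeats. Among the 538 strongest optimal peaks there were 127 members at 114 genes, 40 words higher and 55 lower, 51.6% G and C, 52.8% with GAGAGA, 33.9% with GACGCA and 32.3% with AGACGCAG. There 96.1% were found in both replicates, 4 had copies, and the intron difference from promoter peaks was 18 points (adjusted p = 0.0550, Fisher's exact test). A promoter window of 2000 bp gave 76 words higher and 94 lower, a difference in GAGAGA from X peaks of 18.8 points, and 0.944 for the member median signal over the list median, which was 0.965. A window of 500 bp to 100 bp brought 2 differences from distal peaks with the E-box past the threshold, 15.0 points for GAGAGA and 14.0 points for RNA genes. Summit windows of 51 bp gave 54 words higher and 70 lower. Overlap of at least 50% of each region gave 56.3% found in both replicates, and lists of 2152 regions 86.0%. Members with no CACGTG in the whole peak had a signal ratio of 0.955. RNA genes at 0 bp and within 500 bp gave 13.3% and 32.4%. Copies over 50 bases numbered 13. On a single replicate's list, the signal ratio was 0.947 to 0.958, G and C 47.2% to 49.2%, and GACGCA 17.6% to 19.7%. Its difference from promoter peaks was -10.4 to -3.15 points and that of AGACGCAG from X peaks 9.15 to 13.8 points, each past the threshold in 1 replicate. Leaving out members near a stronger member, chosen after seeing the data, changed no call. The causes were not tested.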
